A study of Mus musculus with 69 samples.

Results

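Matrix metalloproteinases (MMPs) are zinc-dependent enzymes that cut proteins of the extracellular matrix, and tissue inhibitors of metalloproteinases (TIMPs) bind and block them. Transcripts of 8 MMPs (Mmp2, Mmp8, Mmp9, Mmp12, Mmp13, Mmp14, Mmp19 and Mmp27) and of 2 TIMPs (Timp1 and Timp2) were followed in bone marrow-derived macrophages (BMDMs). These 10 genes were chosen by symbol, out of 24537 genes in the expression tables. The rule uses no threshold on a measured value, but the genes were picked with earlier results of these data known.

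Most MMPs are secreted as inactive precursors in which a cysteine of the propeptide blocks the catalytic zinc, and they become active when that propeptide is displaced or removed. Each TIMP blocks an active MMP by binding its catalytic site, so the balance of both sides bears on how much matrix is cut. Macrophages are a source of several MMPs in injured and remodelling tissue, where interleukin-4 (IL-4), a type 2 cytokine that signals through STAT6, drives the alternatively activated state. Mmp12, macrophage elastase, cuts elastin. Mmp8 and Mmp13 are collagenases, Mmp2 and Mmp9 are gelatinases that also cut basement membrane collagen, and Mmp14 is held in the plasma membrane, where with Timp2 it can activate the Mmp2 precursor.

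BMDMs were grown from bone marrow for 7 days with M-CSF and were left untreated (basal) or given 20 ng/ml IL-4. The first set of 29 libraries held cells of 5 inbred strains, the reference C57BL/6J (C57) and then SPRET/EiJ (SPRET), PWK/PhJ (PWK), BALB/cJ (BALB) and NOD/ShiLtJ (NOD), basal and after 24 h of IL-4, with 3 libraries in each group except 2 for basal PWK. A second set of 16 libraries held C57 and SPRET cells, basal and after 1, 6 and 24 h of IL-4, with 2 libraries a point. Another 16 libraries used the same times in Egr2 fl/fl cells (Egr2WT) and LyzM-Cre Egr2 fl/fl cells (Egr2MKO), 2 libraries a point, where Cre under a myeloid promoter deletes the transcription factor Egr2 and the control carries the floxed alleles without Cre. The last 8 libraries came from F1 hybrids, C57xNOD and C57xSPRET, basal and after 24 h of IL-4, with transcripts assigned to the parental alleles. The mice were healthy females of 8 to 12 weeks. The study's methods describe the RNA-seq libraries as biological replicates, but the labels do not tie them to single mice, and each p-value below measures the spread between these libraries.

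Expression is given in TPM, transcript abundance scaled for transcript length and library size, and tests were made with limma on log2(TPM + 1). A gene is said to have risen, fallen or differed where the log2 difference passed 1 in size (2-fold) and the Benjamini-Hochberg adjusted p over all tested genes was under 0.05. The 3 expression sets were labelled with 7.02-22.5, 5.70-24.0 and 4.69-32.9 M tags per library (M, mega). All 10 genes passed the filter of 1 TPM in 2 libraries in each set, although Mmp2, Mmp8, Mmp13 and Mmp27 passed through the groups in which they were high. Of 7 macrophage markers, 6 or 7 reached 1 TPM in each strain group. Their sum was 9325-9741 TPM in PWK and 16578-30188 TPM in the other strains. Adgre1 was at 240-649 TPM, Csf1r at 116-601 TPM and Cd68 at 2456-4012 TPM over the strain libraries, while Mertk, at 0.569-8.02 TPM, and Fcgr1, at 0.265-76.3 TPM, were low in some. Ly6g and Col1a1, which mark neutrophils and fibroblasts, stayed at or below 0.276 and 0.066 TPM. Of 10 neutrophil markers, 6 reached 1 TPM in basal PWK and 8 in PWK after IL-4, against 2 to 4 in each group of the other strains. Camp reached 12.3 TPM, Prtn3 9.5 TPM, Ltf 4.64 TPM and Ngp 4.56 TPM at most over the strain libraries. The summed neutrophil list, mostly S100a8 and S100a9, differed between strains and with IL-4. It went from 113-140 TPM basal to 20.9-26.7 TPM after IL-4 in C57, from 57.6-63.9 to 21.9-23.8 TPM in BALB, from 41.6-53.1 to 15.3-19.2 TPM in NOD, from 562-568 to 560-612 TPM in PWK, and from 345-405 to 249-274 TPM in SPRET. The stromal list, mostly Dcn in PWK, went from 204-213 to 106-113 TPM there and summed to 4.08-17.9 TPM in the other strains. The part of either list in the strain differences and IL-4 responses below was not tested. The median of all genes also differed between groups by more than 0.1 in several comparisons, the largest being -0.30 on the log2 scale for basal NOD against C57, and small differences are to be read against that offset.

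In the mm10 build, 4 of the 8 MMP genes lie on chromosome 9 within the MMP cluster, all on the plus strand: Mmp13 at chr9:7272514-7283333, Mmp12 at chr9:7347374-7360461, Mmp8 at chr9:7558429-7568486 and Mmp27 at chr9:7571396-7581885. The others are spread over the genome, with Mmp2 at chr8:92827297-92853421, Mmp9 at chr2:164948219-164955850, Mmp14 at chr14:54431598-54442456, Mmp19 at chr10:128790955-128800827, Timp1 at chrX:20870166-20874737 and Timp2, on the minus strand, at chr11:118301061-118355411. RefSeq promoters (GRCm38.p6) were found for 7 of the 10 genes, not for Mmp2, Mmp9 and Mmp19. The 250 bases before the gene start are shown for Mmp12, Mmp13 and Timp1, because these 3 genes gave all 14 calls of a higher level after IL-4 in the strains. They are written 5′ to 3′ on the plus strand, and capitals mark a match to the AP-1 motif TGANTCA.
Mmp12, chr9:7347124-7347373: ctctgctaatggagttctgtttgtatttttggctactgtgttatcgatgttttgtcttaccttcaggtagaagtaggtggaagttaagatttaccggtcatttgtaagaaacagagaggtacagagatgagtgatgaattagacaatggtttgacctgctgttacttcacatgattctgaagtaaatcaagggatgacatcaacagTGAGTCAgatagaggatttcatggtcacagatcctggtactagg
Mmp13, chr9:7272264-7272513: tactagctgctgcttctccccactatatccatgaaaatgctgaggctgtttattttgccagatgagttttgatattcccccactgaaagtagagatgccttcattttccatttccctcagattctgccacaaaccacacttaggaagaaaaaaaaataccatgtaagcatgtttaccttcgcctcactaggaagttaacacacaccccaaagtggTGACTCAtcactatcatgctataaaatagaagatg
Timp1, chrX:20869916-20870165: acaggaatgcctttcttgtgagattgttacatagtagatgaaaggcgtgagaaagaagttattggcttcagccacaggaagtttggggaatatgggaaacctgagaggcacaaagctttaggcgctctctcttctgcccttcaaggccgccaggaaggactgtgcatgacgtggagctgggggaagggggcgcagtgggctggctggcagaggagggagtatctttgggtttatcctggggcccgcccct
The AP-1 letters stood at bases -44 to -38 before the start of Mmp12 and at bases -35 to -29 before that of Mmp13, and Timp1 held none. Over the window from 250 bases before to 50 bases after the start, 2 of the 7 genes, Mmp12 and Mmp13, held the AP-1 letters. Of all 32851 promoters, 7.81% held them on either strand. No promoter of the 7 genes held the STAT6 letters TTCNNNNGAA, found in 6.95% of all promoters, or the EGR letters GCGTGGGNG, found in 1.9%. The PU.1 letters GAGGAA, found in 28.3% of all promoters, occurred in that of Mmp8, at bases -219 to -214, and in a second Mmp12 promoter that starts farther upstream (at bases -86 to -81), and no 2 motifs overlapped. These are matches of letters in a short window, which say nothing of whether a factor binds there or elsewhere.

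After 24 h of IL-4, Mmp12, Timp1 and Mmp13 were the genes that rose. Mmp12 and Timp1 rose in all 5 strains, Mmp13 rose in 4, and Mmp9 fell in SPRET. Of the 50 tests of 10 genes in 5 strains, 14 called a higher and 1 a lower level. Each strain gave 3 calls among the 10 genes, beside 3.80%, 2.08%, 1.19%, 2.08% and 3.94% of all genes tested in C57, BALB, NOD, PWK and SPRET. In a bulk sample, fewer cells that make a transcript and less transcript per cell cannot be told apart.

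**Figure D1:**
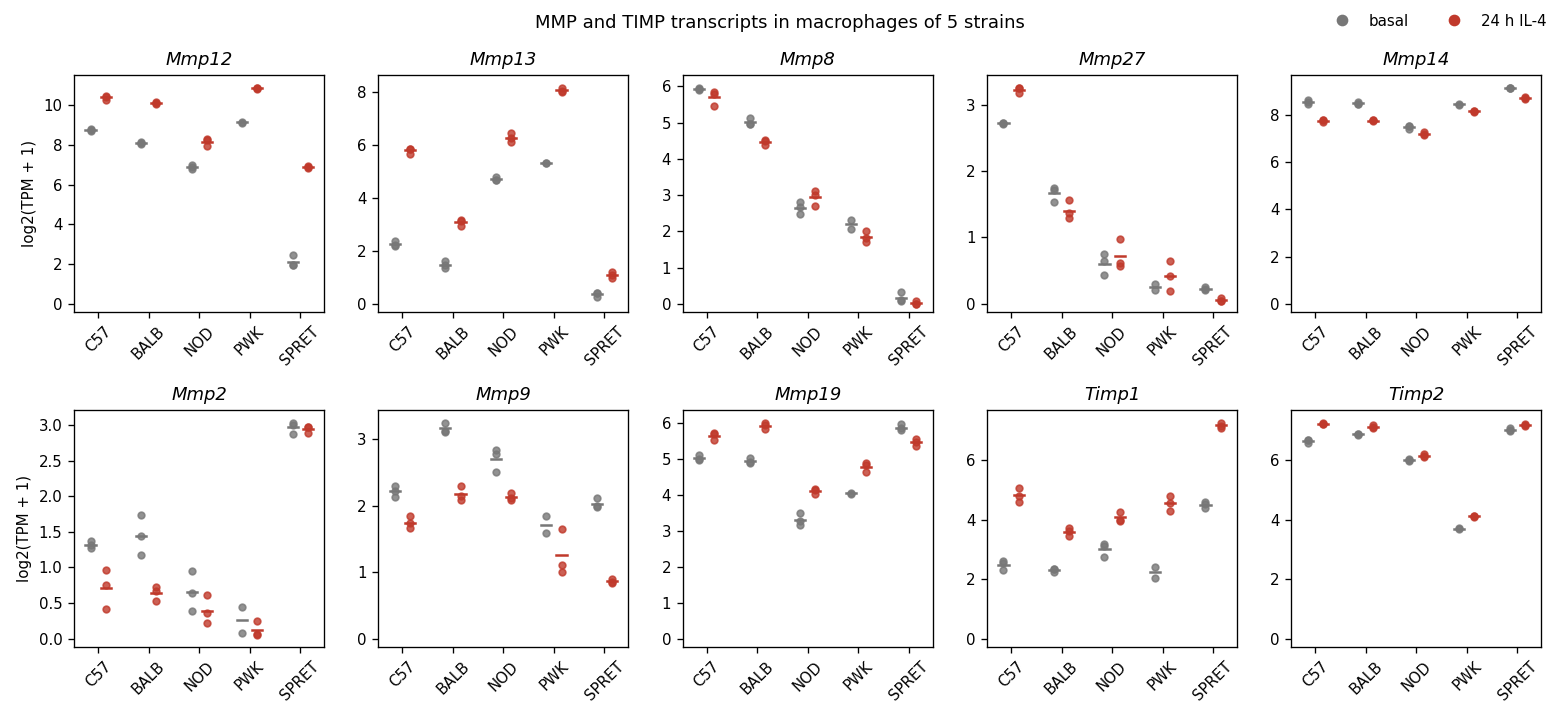
Level of each gene, as log2(TPM + 1), in every library of the 5 strains; grey points are basal, red points 24 h IL-4, and short lines are group means. Mmp12 and Timp1 are higher after IL-4 in every strain, while Mmp8 and Mmp27 step down from C57 to SPRET.

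Mmp12 was at 444, 406 and 435 TPM in the basal C57 libraries and at 1419, 1371 and 1234 TPM after IL-4. In basal SPRET it was at 2.84, 4.46 and 2.92 TPM, against 112, 119 and 120 TPM after IL-4. The groups did not overlap in either strain, and the SPRET cells after IL-4 were still below every basal C57 library. The log2 increases of C57, BALB, NOD, PWK and SPRET were 1.64, 1.99, 1.26, 1.72 and 4.76. The increase in SPRET was larger than that in C57 by 3.11 ± 0.13 on the log2 scale (SE; limma adjusted p = 3.9e-15). Adding 0.1 or 5 TPM in place of 1 TPM before the logarithm gave 3.44 and 2.23 for it.

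Mmp12 also differed between strains before IL-4. Basal PWK held 550 and 572 TPM, BALB 279, 265 and 275 TPM, and NOD 119, 110 and 125 TPM. In the order PWK, C57, BALB, NOD and SPRET each neighbour differed from the next under limma (adjusted p up to 0.0025), although the steps from PWK to C57 and from C57 to BALB, at 0.39 and 0.65, were under 2-fold. Against C57, Mmp12 was lower by a log2 difference of -1.85 in NOD and -6.62 in SPRET. After IL-4 the differences were -2.24 and -3.51. With IL-4, PWK held 1808, 1869 and 1860 TPM, BALB 1121, 1049 and 1100 TPM and NOD 300, 243 and 312 TPM, so the order of the strains was kept.

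Mmp13, collagenase 3, rose most in C57 on the log2 scale and was not called in SPRET. It went from 3.63, 4.20 and 3.50 TPM in basal C57 to 56.8, 57 and 49.8 TPM after IL-4, a log2 increase of 3.54. PWK started higher, at 39.1 and 39.2 TPM, and reached 284, 264 and 257 TPM, an increase of 2.75. NOD went from 24.3, 24.6 and 26.3 TPM to 85.2, 68.2 and 76.2 TPM (1.57), and BALB from 2.04, 1.78 and 1.54 TPM to 7.82, 6.67 and 8.01 TPM (1.61). SPRET values were near the detection limit, at 0.338, 0.205 and 0.321 TPM before and 0.949, 1.32 and 1.14 TPM after IL-4, or about 8-13 and 37-64 reads. Its log2 difference of 0.73 was under 2-fold on this scale, which understates changes of low genes, and with a pseudocount of 0.1 TPM it was 1.68 and past the test.

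The Mmp13 response was smaller than that of C57 in 3 strains, by -1.93 ± 0.13 in BALB, -1.97 ± 0.13 in NOD and -2.81 ± 0.13 in SPRET (SE, log2 scale; limma adjusted p = 3.9e-11, 1e-11 and 7.6e-15). With a pseudocount of 0.1 TPM the SPRET difference was -2.14. In PWK the difference from C57 was -0.79, under 2-fold. Basal Mmp13 was higher than in C57 by 2.45 in NOD and 3.08 in PWK, and lower by -1.89 in SPRET. After IL-4 only PWK stayed above C57 by more than 2-fold (2.28), while BALB and SPRET were below it by -2.71 and -4.70. Basal Mmp13 ordered the strains PWK, NOD, C57, BALB and SPRET, and each step had a limma adjusted p under 0.05, although those from PWK to NOD (0.62) and from C57 to BALB (0.78) were under 2-fold.

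Mmp8, the collagenase named for neutrophils, and Mmp27, its neighbour on chromosome 9, differed widely between strains. Neither was called after IL-4 in any of the 5 strains, with log2 differences from -0.56 to 0.29 for Mmp8 and from -0.26 to 0.51 for Mmp27. Basal Mmp8 was at 60.0, 61.2 and 58.6 TPM in C57, 34.1, 30.2 and 30.2 TPM in BALB, 5.34, 4.53 and 6.04 TPM in NOD, 3.21 and 4.00 TPM in PWK, and 0.255, 0.084 and 0.054 TPM in SPRET. No 2 strains overlapped. Against C57 it was lower by -3.28 in NOD, -3.73 in PWK and -5.76 in SPRET, whereas the -0.91 of BALB was under 2-fold. After IL-4 the SPRET libraries held between 0 and 2 reads of Mmp8, listed at 0.056, 0 and 0 TPM, and the 4 strains differed from C57 by -1.23 (BALB), -2.75 (NOD), -3.85 (PWK) and -5.67 (SPRET). The summed basal neutrophil markers were in the same order as Mmp8 over C57, BALB and NOD, and were higher in PWK and SPRET, where Mmp8 was lowest.

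Mmp27 was low throughout the strain set, at no more than 8.55 TPM, and followed the same order. Basal levels were 5.64, 5.51 and 5.61 TPM in C57, 2.35, 2.30 and 1.90 TPM in BALB, and at most 0.681 TPM in NOD, PWK and SPRET. Only C57 and BALB libraries reached 1 TPM, so Mmp27 passed the filter through groups in which it was high, and its strain differences are a description. It was lower than in C57 in BALB, NOD, PWK and SPRET by -1.05, -2.11, -2.46 and -2.49, and after IL-4 by -1.83, -2.51, -2.81 and -3.17. The BALB difference fell to -0.99, under 2-fold, without basal BALB replicate 3. PWK and SPRET did not differ from each other in basal Mmp27 (limma adjusted p = 0.84). Over the 10 group means the correlation of Mmp8 with Mmp27 was r = 0.91, a description of groups that share libraries and strains.

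Mmp14, the membrane-type enzyme, was the most abundant MMP of basal SPRET, BALB and NOD cells. It was at 371, 352 and 395 TPM in basal C57 and 208, 218 and 217 TPM after IL-4, at 566, 562 and 563 TPM in basal SPRET and 410, 424 and 436 TPM after IL-4, and at 168, 182 and 181 TPM in basal NOD. IL-4 values lay below basal values in each strain, with log2 differences of -0.80 (C57), -0.74 (BALB), -0.27 (NOD), -0.29 (PWK) and -0.41 (SPRET), all with a limma adjusted p under 0.05 and none past 2-fold. Basal NOD was lower than C57 by -1.07, a call that was lost with libraries scaled by median ratios (-0.66). Basal C57, BALB and PWK did not differ from one another at each step of the order (limma adjusted p = 0.37 and 0.42).

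In the strain set the gelatinases were minor transcripts. The time course differed, with basal means of 81.9 TPM for Mmp9 in C57 and 93.9 TPM for Mmp2 in SPRET. Among the strain groups Mmp9 was highest in basal BALB, at 8.50, 7.62 and 7.73 TPM. It was lowest in SPRET after IL-4, at 0.865, 0.785 and 0.796 TPM. It fell in SPRET by -1.17, from 2.94, 3.34 and 2.97 TPM, and the values of the other strains, -0.46 to -0.99, were under 2-fold. Mmp9 was not called between any strain and C57. Mmp2 was at 7.21, 7.04 and 6.36 TPM in basal SPRET, against 1.50, 1.42 and 1.58 TPM in C57, and SPRET was higher by 1.66 before and 2.24 after IL-4. Basal PWK, at 0.358 and 0.054 TPM, was lower than C57 by -1.06, which fell under 2-fold with median-ratio scaling (-0.99), with quantile normalization (-0.92) and without basal PWK replicate 2 (-0.88). Timp2 and Mmp14, with which Mmp2 activation is linked, showed no call between SPRET and C57 in either state. Mmp14 was still higher in SPRET, with C57 minus SPRET differences of -0.60 basal (limma adjusted p = 2.7e-12) and -0.98 after IL-4, just under 2-fold. Those of Timp2 were -0.38 and 0.04.

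Mmp19, a secreted MMP without a collagenase or gelatinase name, had IL-4 values above basal in 4 strains and below basal in SPRET, with no strain past 2-fold. It went from 31.3, 34.0 and 30.8 TPM to 51.9, 51.2 and 45.8 TPM in C57 (0.62), and from 57.2, 55.5 and 61.7 TPM to 40.7, 43.3 and 46.0 TPM in SPRET (-0.42). The groups did not overlap in either strain. The SPRET response was lower than that of C57 by -1.03 ± 0.11 on the log2 scale (SE; limma adjusted p = 8.3e-08), close to the 2-fold limit, and it fell under that limit without C57 replicate 1 after IL-4, and to -0.99 without either SPRET replicate 1 after IL-4 or basal SPRET replicate 3. In the time course no difference of the Mmp19 response was called at any time, and none had a limma adjusted p under 0.05. There Mmp19 went from a mean of 49.9 to 62.5 TPM in C57 and from 51.4 to 54 TPM in SPRET at 24 h. The BALB response was 0.99, and 1.12 with median-ratio scaling, past 2-fold. Mmp19 was lower in NOD than in C57 by -1.73 before and -1.54 after IL-4, with 8.01, 8.76 and 10.3 TPM in the basal NOD libraries.

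Of the inhibitors, Timp1 was induced and Timp2 varied by strain. Timp1 went from 5.10, 3.98 and 4.81 TPM to 23.3, 32.5 and 27.2 TPM in C57 and from 22.2, 20.0 and 23.2 TPM to 137, 141 and 154 TPM in SPRET. SPRET after IL-4 stood above every other library. Its log2 increases in C57, BALB, NOD, PWK and SPRET were 2.34, 1.28, 1.06, 2.32 and 2.67. The NOD increase was 0.90 with median-ratio scaling, 0.88 with quantile normalization, 0.97 without NOD replicate 3 after IL-4 and 0.94 without basal NOD replicate 1, each under 2-fold. Timp1 responses were smaller than in C57 by -1.06 ± 0.19 in BALB and -1.27 ± 0.19 in NOD (SE, log2 scale; limma adjusted p = 0.00025 and 1.2e-05). The BALB value was between -0.94 and -0.99 under either scaling and without BALB replicate 3 after IL-4, C57 replicate 2 after IL-4 or basal C57 replicate 2. Timp1 was higher in SPRET than in C57 by 2.02 before and 2.35 after IL-4, and lower in BALB after IL-4 by -1.24. The higher level in SPRET was not seen in the time course. Basal means there were 0.534 TPM in SPRET and 2 TPM in C57, and at 24 h 2.92 and 3.74 TPM.

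Timp2 was at 95.5, 101 and 102 TPM in basal C57 but at 11.9 and 12.1 TPM in basal PWK, a log2 difference of -2.95. After IL-4, the 3 PWK libraries held 16.5, 16.6 and 16.1 TPM and those of C57 148, 153 and 147 TPM, a difference of -3.11. Neither state overlapped. Timp2 was also lower in NOD after IL-4, by -1.07, which was -0.91 with median-ratio scaling and -0.99 with quantile normalization. No Timp2 response to IL-4 reached 2-fold in any strain, the largest being 0.58 in C57.

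The tests against C57 called 18 of 40 basal differences, 4 higher and 14 lower, and 19 of 40 after IL-4, 3 higher and 16 lower. Mmp27, which passed the filter only through C57 and BALB, gave 4 of the lower calls in each state. For BALB, NOD, PWK and SPRET, basal calls numbered 1, 6, 5 and 6 of 10, beside 4.81%, 16.9%, 13.3% and 18.1% of all genes. After IL-4 they numbered 4, 5, 4 and 6 of 10, beside 5.39%, 13.2%, 12.2% and 20.6%. For the difference of the response from that of C57, the calls in the same strains numbered 2, 2, 0 and 3, beside 1.49%, 2.47%, 2.26% and 3.45% of all genes. At an adjusted p under 0.05 with no fold limit, limma gave 2 of the 10 genes in the PWK comparison, Mmp13 and Mmp14.

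**Figure D2:**
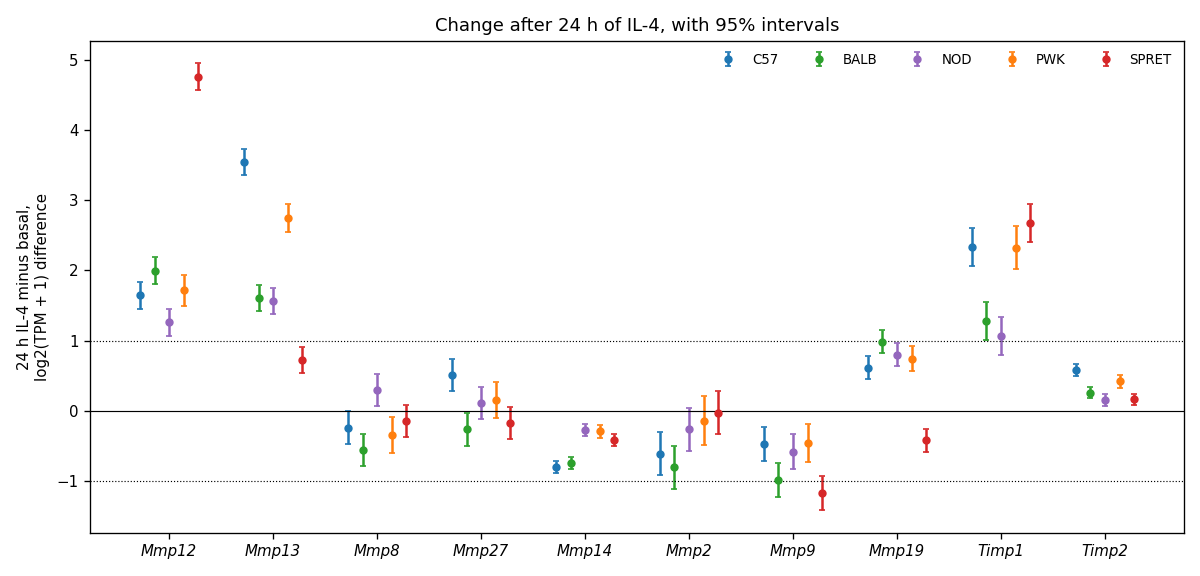
Difference between 24 h IL-4 and basal for each gene and strain, on the log2(TPM + 1) scale; points are limma estimates, bars 95% intervals, and dotted lines 2-fold. The 5 Mmp12 and 5 Timp1 points and 4 of 5 Mmp13 points lie above the upper dotted line.

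As a sum over genes, which TPM allows because it is set per length, the 8 MMPs came to 907.4 ± 34.8 TPM in basal C57 and 1722 ± 107 TPM after IL-4 (SD, n = 3). Mmp12 made up 47.2% of this sum in basal C57 and 77.9% after IL-4. In SPRET its share went from 0.536% to 19.7%, and Mmp14 held 88.7% and 71.5%. The ratio of summed MMP to summed TIMP transcripts was 8.73 ± 0.44 in basal C57 and 9.76 ± 0.69 after IL-4 (SD, n = 3). PWK stood apart, with 61.9 ± 3.0 (SD, n = 2) and 62.7 ± 7.1 (SD, n = 3), as its TIMP sum was 15.72 TPM against 104 TPM in C57. In SPRET the ratio was 4.21 ± 0.10 before and 2.05 ± 0.03 after IL-4 (SD, n = 3), where Timp1 went from 14.4% to 49.8% of the TIMP sum. The time-course libraries went otherwise in SPRET, where the ratio was 2.81 ± 0.22 basal and 6.93 ± 0.10 at 24 h (SD, n = 2). There Timp1 was 0.235% and 1.54% of the TIMP sum. In time-course C57 the ratio was 14.5 ± 0.62 basal and 30.4 ± 0.01 at 24 h (SD, n = 2). The direction in SPRET thus depended on the set. These ratios concern transcripts, and no test was made on them.

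The time course asked when the genes moved in C57 and SPRET. No gene was called at 1 h, in C57 (0.877% of all genes were) or in SPRET (1.89%). At an adjusted p under 0.05 with no fold limit, limma gave 1 gene at 1 h, Mmp12 in SPRET, with 0.72. At 6 h Mmp13 had risen in C57 (2.13% of all genes called) and Mmp12 in SPRET (4.57%). At 24 h Mmp12 and Mmp13 had risen and Mmp9 and Mmp14 had fallen in C57 (5.76%), whereas Mmp12 and Timp1 had risen and Mmp9 had fallen in SPRET (5.62%). Over the 60 tests, 6 called a higher and 3 a lower level.

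**Figure D3:**
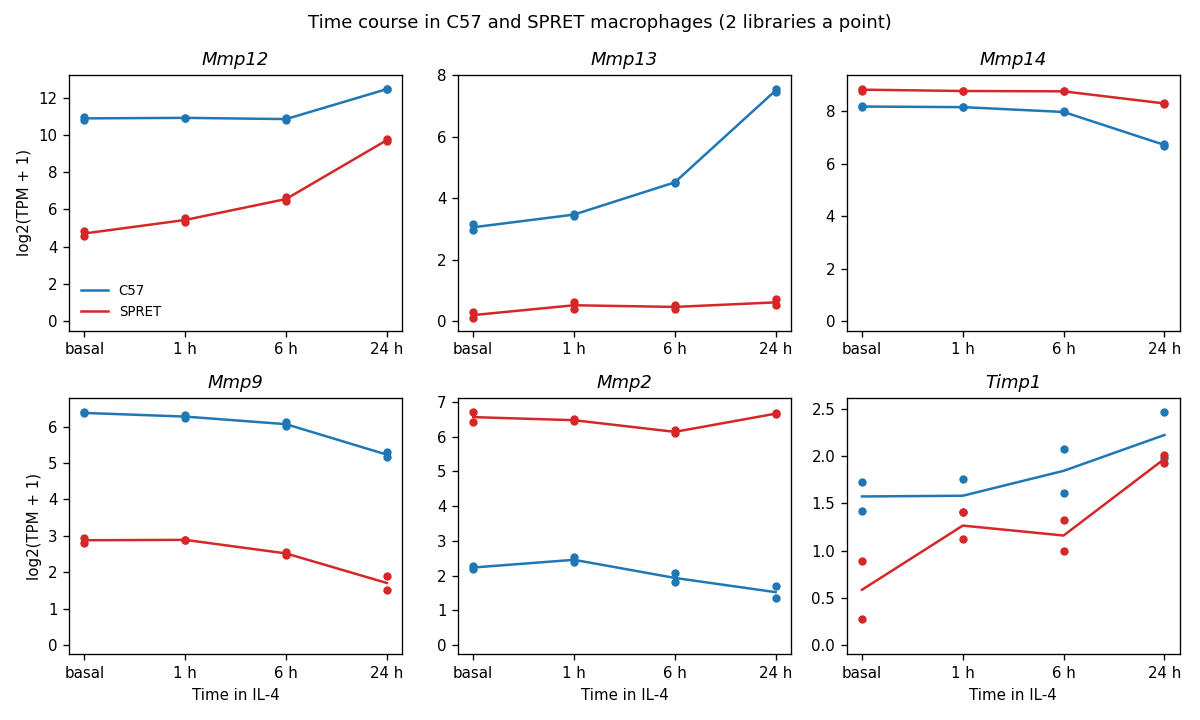
Level of 6 of the genes, as log2(TPM + 1), by time in IL-4 in C57 (blue) and SPRET (red); points are the 2 libraries and lines join group means. Both SPRET points of Mmp12 lie above basal from 1 h on and those of C57 at 24 h, while Mmp13 of SPRET stays at or below 0.639 TPM.

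Mmp12 in C57 was at 1978 and 1816 TPM basal, 1946 and 1919 TPM at 1 h, 1804 and 1889 TPM at 6 h, and 5553 and 5707 TPM at 24 h, a late increase of 1.57. In SPRET it was at 27.4 and 23.2 TPM, 45.1 and 39.8 TPM, 102 and 85.6 TPM, and 865 and 824 TPM, with log2 increases of 0.72, 1.85 and 5.01. The SPRET groups did not overlap at any time. The SPRET response was larger by 1.89 ± 0.13 at 6 h and by 3.44 ± 0.13 at 24 h (SE, log2 scale; limma adjusted p = 2.3e-06 and 1.1e-08).

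Mmp13 in C57 was at 7.87 and 6.78 TPM basal, 21.7 and 22.0 TPM at 6 h and 173 and 187 TPM at 24 h, with increases of 1.46 and 4.45. In SPRET it ranged from 0.070 to 0.639 TPM over all 8 libraries, or about 2-26 reads. The SPRET response was smaller by -1.20 ± 0.17 at 6 h and by -4.03 ± 0.17 at 24 h (SE; limma adjusted p = 0.00052 and 2.9e-08). With a pseudocount of 0.1 TPM the 24 h value was -3.21, and the 6 h value was -0.56 and no longer past the test (limma adjusted p = 0.48). The SPRET response itself, 0.41 at 24 h, was then 1.39 and past the test. For the difference of responses, 0, 2 and 2 of the 10 genes were called at 1, 6 and 24 h, beside 0.811%, 2.40% and 6.22% of all genes. With no fold limit, limma gave an adjusted p under 0.05 at 1 h for Mmp12 alone among the 10 genes.

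Mmp14 in C57 fell by -1.46, from 284 and 292 TPM basal to 102 and 106 TPM at 24 h, and its SPRET value of -0.53, from 439 and 461 TPM to 315 and 310 TPM, was under 2-fold. Mmp9 fell by -1.15 in C57, from 81.1 and 82.7 TPM to 38.3 and 34.7 TPM, and by -1.17 in SPRET, from 6.69 and 6.01 TPM to 2.69 and 1.87 TPM. The SPRET value was -0.99 without SPRET replicate 2 at 24 h. Timp1 rose in SPRET by 1.39, from 0.858 and 0.211 TPM to 3.05 and 2.80 TPM, or about 2-12 and 15-41 reads. In C57 Timp1 went from 1.67 and 2.32 TPM to 2.96 and 4.52 TPM without passing the test (limma adjusted p = 0.058).

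Between the sets, levels of several genes in the same strain lay far apart, and they are given side by side without a test, since each set is a table of its own and the labels do not say whether the cultures were handled alike. Basal C57 held a mean of 3.65 TPM of Mmp9 in the strain set and 81.9 TPM in the time course, and 59.9 against 274 TPM of Mmp8. Basal SPRET held 6.87 against 93.9 TPM of Mmp2, and 21.8 against 0.534 TPM of Timp1. In the time course Mmp2 stayed between 67.3 and 103 TPM in SPRET and between 1.56 and 4.75 TPM in C57 at all times. The stromal marker list summed to 22.4-28.2 TPM in those SPRET libraries and 1.60-3.02 TPM in C57, with Pdgfrb at up to 23.9 TPM and Col1a1 at no more than 0.099 TPM; its part in the Mmp2 difference was not tested. The direction of each 24 h call in C57 or SPRET was the same in both sets where a gene was called in both.

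The Egr2 set asked how the loss of Egr2 bears on the IL-4 response. Egr2 itself was at 21.3-101 TPM in Egr2WT libraries and at 0.854-7.05 TPM in Egr2MKO libraries. Mmp12 was lower in Egr2MKO cells at every time, also before IL-4. At 24 h, Mmp19, Mmp8 and Timp1 were lower too, and Mmp13, Mmp14 and Mmp27 were higher. Of 40 tests of level, 3 called higher and 7 lower in Egr2MKO. By time, 1, 1, 1 and 7 of 10 genes were called at basal, 1, 6 and 24 h, beside 0.853%, 1.06%, 2.30% and 4.55% of all genes. Cre was carried by Egr2MKO cells alone, so an effect of Cre and one of Egr2 loss cannot be told apart.

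**Figure D4:**
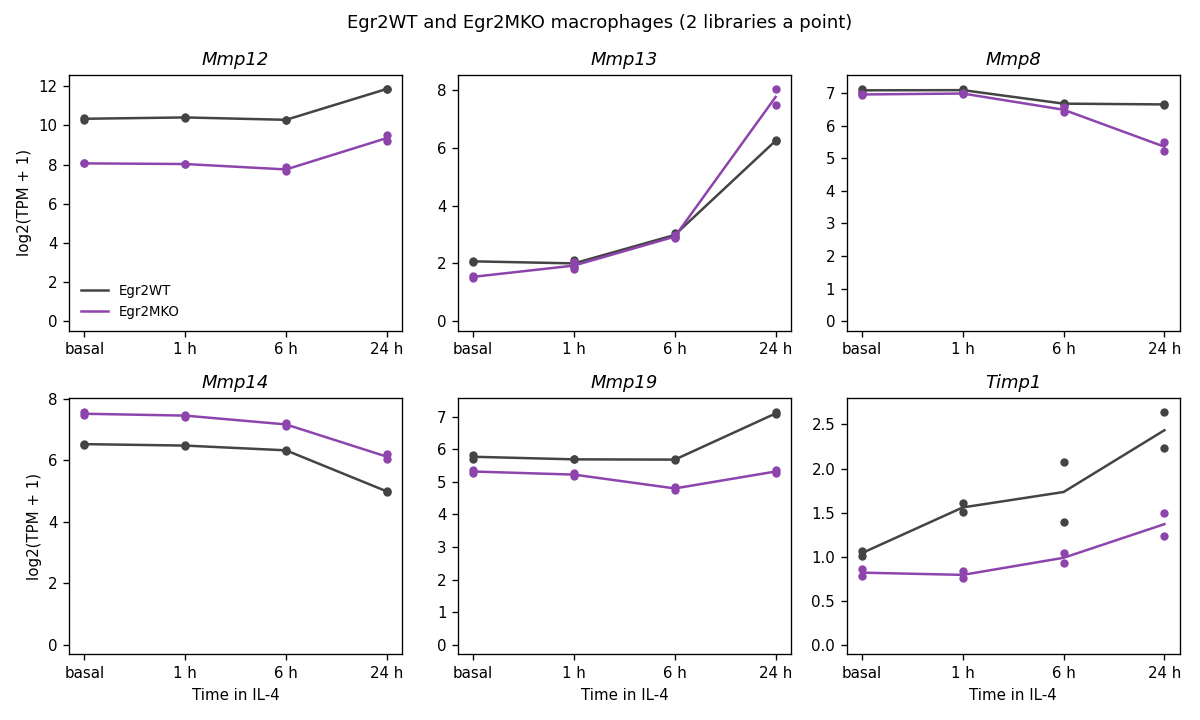
Level of 6 of the genes, as log2(TPM + 1), by time in IL-4 in Egr2WT (grey) and Egr2MKO (purple) macrophages; points are the 2 libraries and lines join group means. Mmp12 runs lower in Egr2MKO at all 4 times, and Mmp13 crosses from lower to higher between basal and 24 h.

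Mmp12 was at 1253 and 1334 TPM in basal Egr2WT and 267 and 265 TPM in basal Egr2MKO, and at 3697 and 3741 TPM against 584 and 729 TPM at 24 h. The groups were apart at each time, by -2.28, -2.38, -2.53 and -2.51 on the log2 scale from basal to 24 h. It still rose at 24 h in both genotypes, by 1.52 in Egr2WT and 1.29 in Egr2MKO. The responses differed by -0.23 ± 0.12 (SE, Egr2MKO minus Egr2WT), which did not pass the test (limma adjusted p = 0.26).

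Mmp13 rose further without Egr2. It was at 3.18 and 3.24 TPM in basal Egr2WT and 1.82 and 1.99 TPM in basal Egr2MKO, and reached 75.8 and 73.9 TPM against 177 and 263 TPM at 24 h. The log2 increases were 4.17 and 6.22, which differed by 2.05 ± 0.22 (SE; limma adjusted p = 9.9e-05). At 6 h Mmp13 had risen in Egr2MKO (1.39), while the Egr2WT value of 0.91 was under 2-fold and the responses were not called as different. The level at 24 h was higher in Egr2MKO by 1.51.

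Mmp8 and Mmp19 also responded differently at 24 h. Mmp8 was at 130 and 139 TPM in basal Egr2WT and 99.8 and 98.9 TPM at 24 h, against 124 and 122 TPM and 36.2 and 43.9 TPM in Egr2MKO, where it fell by -1.60. The responses differed by -1.17 ± 0.11 (SE; limma adjusted p = 3.3e-05). Mmp19 rose in Egr2WT by 1.33, from 51.4 and 55.8 TPM to 139 and 133 TPM. In Egr2MKO it was at 37.8 and 40.0 TPM before and 38.0 and 39.8 TPM at 24 h, and the responses differed by -1.33 ± 0.08 (SE; limma adjusted p = 2.4e-06). At 24 h the level of Mmp8 was lower in Egr2MKO by -1.30 and that of Mmp19 by -1.78. The neutrophil list summed to 21.3-23.8 TPM in Egr2WT and 12.6-17.4 TPM in Egr2MKO at 24 h, and its part in the Mmp8 difference was not tested.

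Mmp14 was higher in Egr2MKO throughout, with 187 and 176 TPM against 89.9 and 92.2 TPM basal and 72.4 and 64.6 TPM against 31.3 and 30.2 TPM at 24 h. The differences were 0.99, 0.97 and 0.84 up to 6 h, under 2-fold, and 1.13 at 24 h, which was 0.99 with median-ratio scaling. It fell in both genotypes at 24 h, by -1.54 in Egr2WT and -1.39 in Egr2MKO. Mmp9 fell by -1.32 and -1.01, and the Egr2MKO value was -0.91 and -0.96 without Egr2MKO replicate 1 at 24 h or basal Egr2MKO replicate 2. Mmp27 at 24 h was at 9.42 and 9.74 TPM in Egr2WT and 20.6 and 21.2 TPM in Egr2MKO, a difference of 1.05 that was 0.92 and 0.90 with median-ratio scaling and quantile normalization. Timp1 rose in Egr2WT by 1.39, from 1.02 and 1.10 TPM to 5.22 and 3.70 TPM, or about 7-11 and 33-42 reads. In Egr2MKO at 24 h it was at 1.36 and 1.83 TPM, or about 4-9 reads, lower by -1.07. That difference was -0.94 without Egr2MKO replicate 1 and -0.86 without Egr2WT replicate 1 at 24 h. Timp2, the main inhibitor transcript here, was at 257 and 240 TPM in Egr2WT and 306 and 300 TPM in Egr2MKO at 24 h, and it was not called at any time.

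Within Egr2WT cells, 0, 0 and 6 of the 10 genes were called at 1, 6 and 24 h of IL-4, beside 0.778%, 2.86% and 4.35% of all genes. Within Egr2MKO cells 0, 1 and 5 were called, beside 0.902%, 3.70% and 4.83%. At 1 h limma also gave 0 of the 10 genes an adjusted p under 0.05 with no fold limit in either genotype. For the difference of responses 0, 0 and 3 genes were called, beside 0.00828%, 0.207% and 1.90%. The summed MMP to TIMP ratio went from 10.5 ± 0.3 to 16.1 ± 0.95 in Egr2WT and from 3.26 ± 0.07 to 3.45 ± 0.59 in Egr2MKO at 24 h (SD, n = 2). Mmp13 made up 20.7% of the MMP sum in Egr2MKO at 24 h and 1.84% in Egr2WT.

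In C57xSPRET F1 cells both genomes share 1 nucleus, and for genes outside the X chromosome the allele values compare them under the same conditions. Allele values are reads weighted by those that cover a variant, so they serve as ratios and not as levels, and with 2 libraries a condition and no depth they are described without a test. Mmp12 alleles were near parity. Its C57 and SPRET alleles were at 871 and 830 in one basal library and 585 and 578 in the other, and at 1801 and 1988 and at 1825 and 1830 after IL-4. The log2 ratio of C57 to SPRET allele was 0.04 basal and -0.07 after IL-4, while the parental strains differed by 6.62 and 3.51 in the same direction of comparison.

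**Figure D5:**
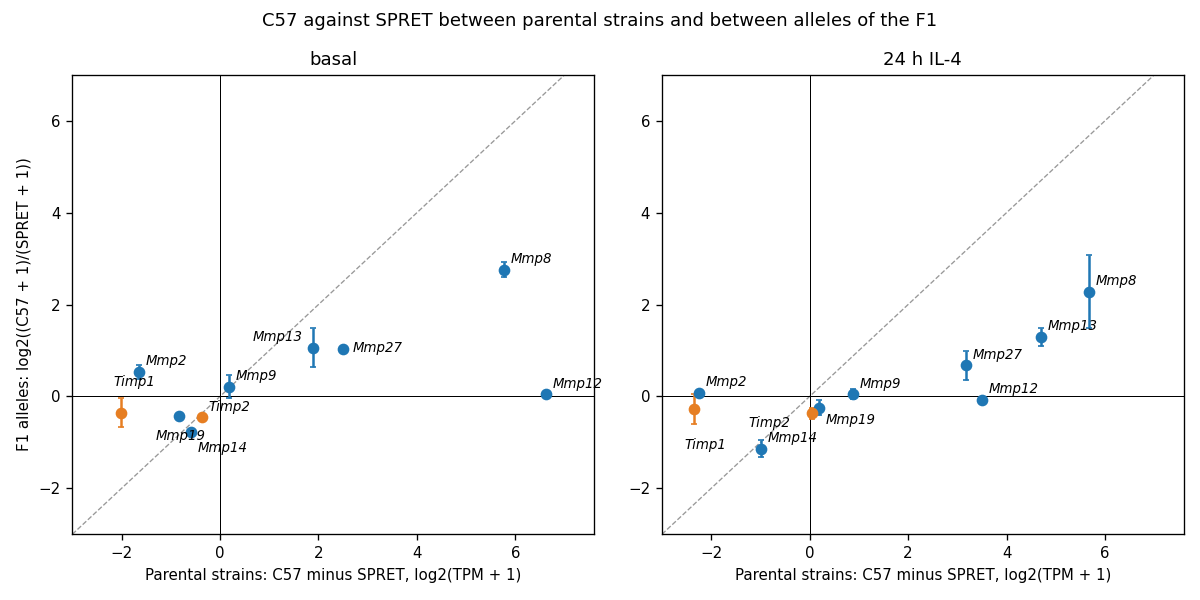
Log2 ratio of C57 to SPRET alleles in F1 cells (vertical) against the C57 minus SPRET difference between parental strains (horizontal), basal and after 24 h IL-4; points are means of 2 libraries, bars span both, blue marks MMPs and orange TIMPs, and the dashed line marks equal values. Mmp12 lies far to the right at a ratio near 0, and Mmp8 is the highest point in both panels.

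Mmp8 kept an allelic difference, with C57 and SPRET alleles at 127 and 20.1 and at 111 and 13.7 in the basal libraries. Its log2 ratio was 2.76 basal and 2.28 after IL-4, where the libraries gave 3.08 and 1.48, beside parental differences of 5.76 and 5.67. Mmp13 had ratios of 1.06 and 1.29, with basal libraries at 0.63 and 1.48, beside 1.89 and 4.70 between the parents. Mmp27 had ratios of 1.04 and 0.68 beside 2.49 and 3.17. Mmp14 leaned to the SPRET allele, with -0.78 basal and -1.14 after IL-4, close to the parental -0.60 and -0.98. Timp1 had ratios of -0.36 and -0.28 beside -2.02 and -2.35, with libraries 0.62 and 0.65 apart. It lies on the X chromosome, so in female cells its ratio also depends on which X is active. The Timp1 ratio is therefore not read like those of the other genes. Among genes with a summed allele value of 2 or more in this cross, 9.92% basal and 8.31% after IL-4 had a mean ratio past 2-fold.

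With IL-4 both alleles of the responsive genes moved the same way in this cross. The log2 change was 1.34 on the C57 and 1.46 on the SPRET allele of Mmp12, 2.77 and 2.55 for Mmp13, 1.17 and 1.09 for Timp1, and 0.87 and 0.68 for Mmp19. In the parental strains the same genes had changed by 1.64 and 4.76, 3.54 and 0.73, 2.34 and 2.67, and 0.62 and -0.42, in C57 and SPRET. Mmp14 alleles changed by -1.23 and -0.88. Allele values are weighted and hold no depth, so these changes are read only between both alleles of a gene. Their sizes are not comparable with those of the parental TPM changes, and no test was made.

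In C57xNOD F1 cells, Mmp8, Mmp12, Mmp13, Mmp19, Mmp27 and Timp1 were listed at 0 on both alleles in all 4 libraries, so no ratio could be had for them. Mmp14 had log2 ratios of -0.01 basal and 1.23 after IL-4, where the libraries gave 0.68 and 1.78. Timp2 had ratios of -0.14 and -0.36. Mmp2 was read in some libraries only, with alleles of 1.32 and 1.39 in one basal library and 0 and 8.23 in the other. In this cross 17.8% of genes basal and 24.5% after IL-4 had a ratio past 2-fold. Over both crosses and states, 8 of 40 ratios of the 10 genes were past 2-fold. They include Mmp2 in basal C57xNOD (-1.62), where the libraries gave -0.04 and -3.21. The genes at 0 on both alleles count among the 40 with a ratio fixed at 0. The shares of all genes leave out genes with a summed allele value under 2, so the count is not read against them.

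Other genes of the same pathway were taken from lists, also drawn up with earlier results known, and outside the MMP and TIMP list the genes named are those with the largest called changes. Of the 17 other MMP and TIMP genes, 3 passed the filter in the strain set (Mmp11, Mmp24 and Mmp25), 3 in the time course (Mmp11, Mmp24 and Mmp28) and 2 in the Egr2 set (Mmp10 and Mmp24). Mmp24, a membrane-type enzyme, was steady at 3.98-10.0 TPM over the strains. None of the 3 in the strain set was called after IL-4. Mmp25 reached no more than 2.06 TPM in any strain library, close to the filter of 1 TPM. No test of Mmp25 between strains is given. Mmp10, stromelysin 2, which also lies in the chromosome 9 cluster (chr9:7502342-7510242), was at 10.4 and 16.2 TPM in Egr2MKO cells at 24 h and at no more than 0.238 TPM in every other library of that set. It passed the filter only through those 2 libraries, so no test of it is given.

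Of 21 genes of MMP activation, inhibition and clearance, 11 were tested in the strain set. After IL-4, Lcn2, lipocalin 2, fell in C57 (-2.32), BALB (-2.20), NOD (-2.15) and PWK (-1.69). Serpinb2, a plasminogen activator inhibitor, rose in SPRET (3.84). Each strain thus had 1 call of 11, beside the 1.19% to 3.94% of all genes given above for these comparisons, and the median of the 11 genes was between -0.10 and 0.31, beside -0.11 to 0.12 for all genes. Before IL-4, Ctsk, a collagen-cutting cathepsin, was lower in NOD than in C57 by -6.04, and Serpine2, a protease inhibitor, was higher in PWK by 5.93. In the Egr2 set 12 were tested, and Plaur, the urokinase receptor, was lower in Egr2MKO at 24 h by -2.41, the only call of that list at that time.

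Of 14 ADAM and ADAMTS proteases, 8 were tested in the strain set. Adam8 rose after IL-4 in C57 (1.45), BALB (1.32), NOD (1.23) and PWK (1.58) and no gene of the list was called in SPRET. Basal Adamts1 was higher in NOD than in C57 by 3.65. Of 10 matrix substrates, 4 were tested. Fn1, fibronectin, rose in C57 (2.09), BALB (1.49) and SPRET (2.22), Thbs1 rose in C57 (1.57) and fell in BALB (-1.27), Spp1 rose in SPRET (2.29), and none was called in NOD or PWK. Basal Fn1 was at 31.6-33.8 TPM in SPRET and 0.283-0.666 TPM in C57, a difference of 4.52. In Egr2MKO cells Fn1 libraries lay far apart, at 0.529 and 72.9 TPM at 1 h and 28.8 and 160 TPM at 6 h, and it is not compared there.

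The gene whose group means over the 10 strain groups were most like those of each gene was also looked up, by Pearson's r, as a description. It was Cst7 for Mmp12 (r = 0.952), Ccl2 for Mmp13 (0.985), Pkp3 for Mmp8 (0.983), Rpain for Mmp27 (0.981), Fmnl1 for Mmp14 (0.968), Dtd1 for Mmp2 (0.983), Ulk1 for Mmp9 (0.941), Tmem198b for Mmp19 (0.986), Scimp for Timp1 (0.974) and Isca1 for Timp2 (0.985). Each was the highest r among the 11907 tested genes. Ccl2 varied as widely over the groups as Mmp13 did, with an SD of the group means of 2.51 against 2.56 on the log2 scale, whereas Pkp3 varied far less than Mmp8, with 0.38 against 2.13.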

How the data were processed

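RNA-seq of poly(A) RNA (dUTP libraries) was measured in 69 mouse BMDM samples. The authors mapped reads with STAR to the genome of each strain, shifted them to mm10, and counted exons with HOMER. The deposited values are TPM, with no counts. How this mapping affects genes in diverged strains was not tested. For F1 cells, the authors split each transcript's value between alleles by reads over variants. Fold changes and q-values of the authors' DESeq2 comparisons were not used, nor was a table of human cells.

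From TPM, log2(TPM + 1) was fitted with limma 3.58.1 in R 4.3.3 (1 mean per group, empirical Bayes with trend, all groups of a table in 1 model, Benjamini-Hochberg over 11907, 12088 and 12079 genes with at least 1 TPM in 2 libraries). Calls needed 2-fold and an adjusted p under 0.05. Differences between responses were tested as interaction contrasts. Figures were drawn with matplotlib 3.10.9. The fit was tested on simulated data. F1 ratios were log2((C57 + 1)/(other + 1)), untested.

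Low TPM values times length were near whole multiples of 1 unit, taken as 1 read, for 91.1-94.9% of low values per library (tolerance 0.1 read). Approximate reads come from this, and with no deposited counts no count test was run. The unit did not follow the labelled tags in every library. Basal C57 replicates 1 and 2 had 13.9 and 7.61 M tags but units of 87.95 and 83.41 TPM times bases. Egr2WT replicate 2 at 6 h had 15.7 M tags and a unit of 368.9. Which of the values is off was not tested, so the reads given are rough.

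All 10 genes are named, with list genes at the 3 largest called changes per list at most, any tested gene of the other MMPs and TIMPs, and the gene of highest r for each. Genes and lists were chosen with earlier results of these data known. The labels state no pairing of libraries, so numbers were not treated as pairs. Deviations of same-numbered libraries from their group means had a mean r of 0.0134, -0.0046 and 0.0305 in the strain, Egr2 and time-course tables. The largest r were 0.333, 0.0565 and 0.266. These means run over all pairs of groups, also of different strains or genotypes, so they cannot exclude a pairing within a strain. Alternatives were another pseudocount, filter, scaling, model, a replicate block and each library left out. Promoter letters are from RefSeq.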

Additional observations from a re-analysis of the deposited data

Results flagged for a closer look

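In 14 cases the response of a gene to IL-4 differed between groups by more than 2-fold, by the test of that difference itself (interaction contrasts in limma, adjusted over all genes, log2 scale). Against C57 at 24 h, Mmp13 differed by -1.93 in BALB (limma adjusted p = 3.9e-11), -1.97 in NOD (1e-11) and -2.81 in SPRET (7.6e-15). Timp1 differed by -1.06 in BALB (0.00025) and -1.27 in NOD (1.2e-05). In SPRET, Mmp12 differed by 3.11 (3.9e-15) and Mmp19 by -1.03 (8.3e-08). The Mmp19 difference was not repeated in the time course, where it did not pass the test at any time. In the time course, SPRET differed from C57 in Mmp12 by 1.89 at 6 h (2.3e-06) and 3.44 at 24 h (1.1e-08), and in Mmp13 by -1.20 at 6 h (0.00052) and -4.03 at 24 h (2.9e-08). At 24 h, Egr2MKO differed from Egr2WT by -1.17 for Mmp8 (3.3e-05), 2.05 for Mmp13 (9.9e-05) and -1.33 for Mmp19 (2.4e-06). With 2 or 3 libraries a group, single libraries were not tested as outliers.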

How the results depend on the processing

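No value turned direction past the test under any of the alternatives run. Counts of calls of the 10 genes stayed within 1.5 times the reported ones, except that the difference from C57 in the 24 h response gave 4 calls in place of 7 with a pseudocount of 5 TPM, the IL-4 response in the time course gave 15 in place of 9 with one of 0.1 TPM, and F1 ratios past 2-fold numbered 4 in place of 8 with one of 5 TPM. Over the tested values of single genes, a pseudocount of 5 TPM lost 20 calls and added 0, one of 0.1 TPM lost 1 and added 28, median-ratio scaling lost 7 and added 1, and quantile normalization lost 5 and added 1. The fit without a filter and robust empirical Bayes changed none of the 390 values. A filter at 5 TPM changed none of the 355 that could be run, which leave out Timp1 in the time course and the Egr2 set and Mmp2 in the Egr2 set, and with them 3 Timp1 calls. A fit of only the groups compared changed none of the 370 that could be run. A larger pseudocount shrinks low genes by construction. The 20 calls were Mmp13 in BALB, Timp1 in BALB and NOD and Mmp9 in SPRET for the 24 h response, Mmp27 in BALB and NOD, Mmp2 in PWK and SPRET and Mmp13 in SPRET for basal differences, Timp1 in BALB and NOD and Mmp19 in SPRET for the difference in response, Mmp9 and Timp1 at 24 h in time-course SPRET, and, of the Egr2 libraries, Mmp9 in both genotypes, Timp1 in Egr2WT, Mmp13 in Egr2MKO at 6 h, and the Mmp27 and Timp1 levels at 24 h. The Timp2 response in NOD, 0.15 and under 2-fold, was -0.03 with median-ratio scaling.

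With each library left out in turn, calls ranged 14-16 for the 24 h response in strains, 17-19 for basal and 19-20 for IL-4 differences from C57, 6-7 for the difference in response, 8-11 for the time-course response, 4-5 for its SPRET difference, 11-13 for the response in the Egr2 set, 10-11 and 3-3 for the Egr2MKO differences in level and response, and 7-9 for F1 ratios.

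The replicate block gave the same counts as the fit without it (15, 18, 19, 7, 9, 4, 12, 10 and 3, in the order above). Same-numbered libraries correlated over 0.1 in 9 of 126, 6 of 56 and 0 of 56 pairs in the strain, time-course and Egr2 sets. Neither these counts nor the block, which ties a number across all groups of a set, can exclude a pairing within a strain.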
